A study of Mus musculus with 23 samples.

Results

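Liver miRNAs of mice from an omega 3 lineage on a high-fat diet (HFepa, labelled HFD_O3) were compared with those of mice from a control lineage on a low-fat diet (reference, labelled STD_Cont). All 7 HFepa and all 8 reference libraries were taken, 15 of the 23 libraries of the series, with 1 library per mouse. Every mature miRNA of the count table was a candidate, and the 386 of 1218 that passed edgeR's filter on low counts were tested. All mice were F3 males on the C57bl/6J background, bred for 3 generations on a growing diet with 1% (w/w) of added oil. The oil was a fish oil rich in eicosapentaenoic acid (EPA) in the omega 3 lineage and a high-oleic sunflower oil in the control lineage. For 17 weeks HFepa mice were then fed a diet rich in fat (45% of its energy) and sucrose, while in the diet of reference mice fat gave 10% of the energy. HFepa vs. reference therefore changes the lineage and the challenge diet together, and the part of each cannot be told apart in it. The remaining 8 libraries, HFoleic, came from the control lineage on the high-fat diet, and their values are given beside the results. The age of the mice is not given in the sources used here.

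A miRNA is a short RNA cut from a hairpin precursor, which can give a mature strand from its 5′ arm (5p) and another from its 3′ arm (3p). Bases 2 to 8, the seed, pair with target mRNAs, so miRNAs that share a seed are grouped as a family, and hairpins that lie close together are often transcribed as 1 cluster. In the liver, miR-122 is the classical hepatocyte miRNA, whereas other miRNAs mark blood cells, vessels, stellate cells or bile ducts, and whole liver RNA holds all of them.

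The mature sequences below belong to the families and loci on which the comparison turns. They were matched by name to RefSeq on GRCm38.p6, where 333 of the 386 tested and 51 of the 61 called miRNAs had an entry, and the seed is in capitals. The miR-99 family shares the seed ACCCGUA, and its 3 tested members were all higher in HFepa.
miR-99a-5p: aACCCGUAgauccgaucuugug
miR-99b-5p: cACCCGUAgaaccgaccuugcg
miR-100-5p: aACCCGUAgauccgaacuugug
The next pair shares the seed AUGCACC and the same host intron, but only miR-501-3p was called.
miR-501-3p: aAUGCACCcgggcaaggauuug
miR-500-3p: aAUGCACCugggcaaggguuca
The miR-25 family, with the seed AUUGCAC, was the other seed family with more than 1 called member among miRNAs with an entry. Both of these were lower.
miR-25-3p: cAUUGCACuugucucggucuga
miR-92a-3p: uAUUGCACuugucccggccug
miR-92b-3p: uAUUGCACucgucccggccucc
miR-32-5p: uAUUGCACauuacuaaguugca
Single miRNAs that were called in every leave-one-out fit, or that lead their locus, are shown last.
miR-125b-5p: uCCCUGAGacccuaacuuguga
miR-362-5p: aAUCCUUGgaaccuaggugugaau
miR-335-3p: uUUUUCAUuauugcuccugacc
miR-1843b-3p: cCGAUCGUuccccuccauac
miR-425-3p: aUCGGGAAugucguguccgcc
miR-676-3p: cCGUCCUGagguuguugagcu
miR-128-3p: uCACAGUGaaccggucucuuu
miR-181a-2-3p: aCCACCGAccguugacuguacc
let-7f-5p: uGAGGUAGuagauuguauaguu
miR-127-3p: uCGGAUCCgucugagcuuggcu
Sequences of miR-150-5p, miR-151-5p, miR-5099, miR-375-3p, miR-133a-3p and miR-126a-5p are not shown here.

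Total counts lay between 5242218 and 8139344 in the reference group (median 5981328) and between 3725432 and 4947990 in HFepa (median 4400595), so the totals did not overlap. No library repeated another of its group within counting error, and each was kept as 1 replicate. In their labels the reference libraries carry the numbers 1 to 8, HFoleic 9 to 15 and 23, and HFepa 16 to 22. Any effect tied to the library number therefore cannot be told apart from the group. Reference libraries 3, 4 and 5 stood apart in the miRNAs of other tissues and cell types, as described below, and counts are given with and without them. HFepa library 19 lay near the reference level in several of the miRNAs that were highest in HFepa.

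In HFepa vs. reference, 61 of 386 tested miRNAs were called (15.8%), 20 higher (5.18%) and 41 lower (10.6%) in HFepa. Entries with nearly the same counts are counted separately in these totals. They include miR-126a-5p and miR-126b-3p among those higher, and miR-136-3p and miR-3071-5p among those lower. For a call, the log2 fold change had to exceed 0.25 in size and the p of edgeR's quasi-likelihood test, after Benjamini-Hochberg adjustment, had to lie under 0.05; all adjusted p values below are of this kind. The split moved with the test and the scaling, to 24 higher and 23 lower by DESeq2, 24 and 25 by limma-voom, and 18 and 6 after quantile normalization. The groups did not overlap for 18 tested miRNAs (4.66%), 8 higher and 10 lower, and 16 of these were called. Of the 61 called, 23 kept their call when any 1 of the 15 libraries was left out, 11 higher and 12 lower. Without reference libraries 3, 4 and 5, 32 of 390 miRNAs were called (8.21%), and 28 of them belonged to the 61. Over all tested miRNAs the median log2 fold change was -0.06, and 165 lay above 0.

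**Figure D1:**
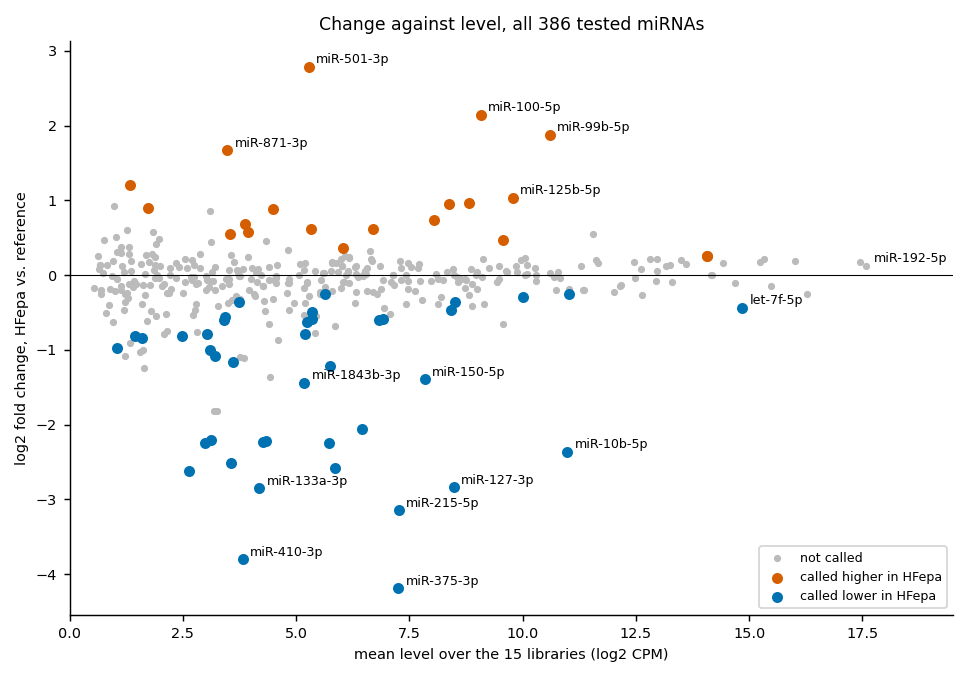
Each point is 1 of the 386 tested miRNAs, with the mean level over the 15 libraries (log2 CPM) on the x axis and the log2 fold change of HFepa vs. reference on the y axis. The 20 miRNAs called higher reach 2.79 (miR-501-3p), the 41 called lower reach -4.19 (miR-375-3p), and the most abundant miRNA, miR-192-5p, lies close to 0.

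The miR-99 family moved as a whole. Levels are CPM, the counts scaled to the same total in every library after correction by the trimmed mean of M values (TMM), and are compared here for 1 miRNA between libraries. miR-100-5p (chr9:41531437-41531458, plus strand, in an intron of a long non-coding RNA) ranged from 187 to 282 CPM in the reference group with a median of 198, and from 309 to 1484 CPM in HFepa with a median of 908. The lowest HFepa mouse, library 19, was above the highest reference mouse, library 3. Group means were 209 ± 31.4 CPM (SD) in 8 reference mice and 922 ± 427 CPM (SD) in 7 HFepa mice. Its log2 fold change was 2.14 ± 0.45 (SE, adjusted p = 0.0043).

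miR-99b-5p (chr17:17830194-17830215, plus strand, in an intron of Spaca6) had the highest level of the family, at 544 to 987 CPM (median 660) in the reference group and 831 to 4404 CPM (median 2234) in HFepa. Here the groups overlapped in only 1 mouse of each, HFepa library 19 and reference library 3, and the log2 fold change was 1.88 ± 0.42 (SE, adjusted p = 0.0065). miR-99a-5p (chr16:77598940-77598961, plus strand, in an intron of Mir99ahg) changed less, by 0.96 ± 0.22 on the log2 scale (SE, adjusted p = 0.0071). It ranged from 288 to 348 CPM with a median of 310 in the reference group and from 397 to 740 CPM with a median of 646 in HFepa, with no overlap. These 3 sequences differ at few bases, so reads with mismatches could have been divided between them in counting, above all between miR-99a-5p and miR-100-5p. The opposite arms did not follow: the log2 fold change was -0.11 for miR-99a-3p (adjusted p = 0.53) and -0.47 for miR-99b-3p (adjusted p = 0.14).

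The miR-125 guide strands lie in the same 3 loci as the miR-99 family. miR-125b-5p, which has a copy beside miR-100 on chromosome 9 and another beside miR-99a on chromosome 16, ranged from 510 to 722 CPM (median 569) in the reference group and from 590 to 1602 CPM (median 1164) in HFepa. Library 19 was the single HFepa mouse within the reference range, and the log2 fold change was 1.03 ± 0.25 (SE, adjusted p = 0.0088). In contrast, miR-125b-1-3p, the 3p strand of the copy on chromosome 9, was called lower, at -0.79. That call was lost in 7 leave-one-out fits, among them those without reference library 3 or 5. miR-125a-5p, beside miR-99b, was not called, at 0.55 ± 0.20 (SE, adjusted p = 0.059). The let-7 members of these loci did not move with them. In the locus of miR-99b, let-7e and miR-125a, 1 of 6 tested strands was called and the median was -0.06. In the list for the locus of miR-99a, let-7c and miR-125b-2, 1 of 5 was called and the median was 0.08. That list leaves out miR-125b-5p, which was called higher and has a copy in this locus. The letters ACCCG, which lie in the seed of the miR-99 family, were found on the mature strand of 6 of the 333 miRNAs with a sequence (1.80%). They were in 4 of the 14 called higher with a sequence (28.6%), the miR-99 family and miR-501-3p, and in 0 of the 37 called lower. The letters were picked from the seed of a family already called higher, so its 3 members were fixed by that choice. These shares are therefore no test of a sequence feature. ACCC, a part of ACCCG, was in 5 of the 14 and 5 of the 37, and GGGU in 0 of the 14 and 4 of the 37.

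The largest rise was that of miR-501-3p (chrX:7241270-7241291, minus strand), encoded in an intron of Clcn5, a gene for a chloride and proton exchanger. Its levels were 7.81 to 15.4 CPM (median 10.4) in the reference group and 24.3 to 95.6 CPM (median 82.1) in HFepa, with no overlap. The lowest HFepa value was again library 19, and the log2 fold change was 2.79 ± 0.47 (SE, adjusted p = 0.0012). In the same intron, miR-362-5p (chrX:7242019-7242042) lay at 0.57 to 2.41 CPM (median 1.52) in the reference group and at 2.53 to 4.20 CPM (median 4.01) in HFepa, again without overlap, with a log2 fold change of 1.20 ± 0.24 (SE, adjusted p = 0.0028). The other 5 tested strands of the intron were not called. Among them, miR-500-3p, with the seed of miR-501-3p, had a log2 fold change of 0.20 ± 0.19 (SE, adjusted p = 0.57). The median of the 7 tested strands was 0.20.

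Other miRNAs that rose in every leave-one-out fit were spread over the genome. miR-335-3p (chr6:30741354-30741375), from an intron of the imprinted gene Mest, ranged from 23.3 to 47.2 CPM in the reference group (median 29.7) and from 40.7 to 58.1 CPM in HFepa (median 49.9). Only the highest reference mouse reached the HFepa range, and the log2 fold change was 0.62 ± 0.14 (SE, adjusted p = 0.0073). miR-151-5p ranged from 594 to 704 CPM (median 623) against 819 to 951 CPM (median 871), and miR-5099 from 210 to 268 CPM (median 227) against 361 to 546 CPM (median 431). Neither overlapped between the groups. Their log2 fold changes were 0.47 ± 0.11 (SE, adjusted p = 0.0065) and 0.96 ± 0.19 (SE, adjusted p = 0.0028). miR-871-3p, from a cluster on the X chromosome, varied more, at 2.75 to 8.93 CPM in the reference group (median 5.27) and 1.43 to 46.1 CPM in HFepa (median 12.3). Its lowest HFepa mouse lay below every reference mouse, although the call held in all fits that left out 1 library (log2 fold change 1.67 ± 0.43, SE, adjusted p = 0.014). It was lost without reference libraries 3, 4 and 5 together, at 1.45 (adjusted p = 0.071).

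**Figure D2:**
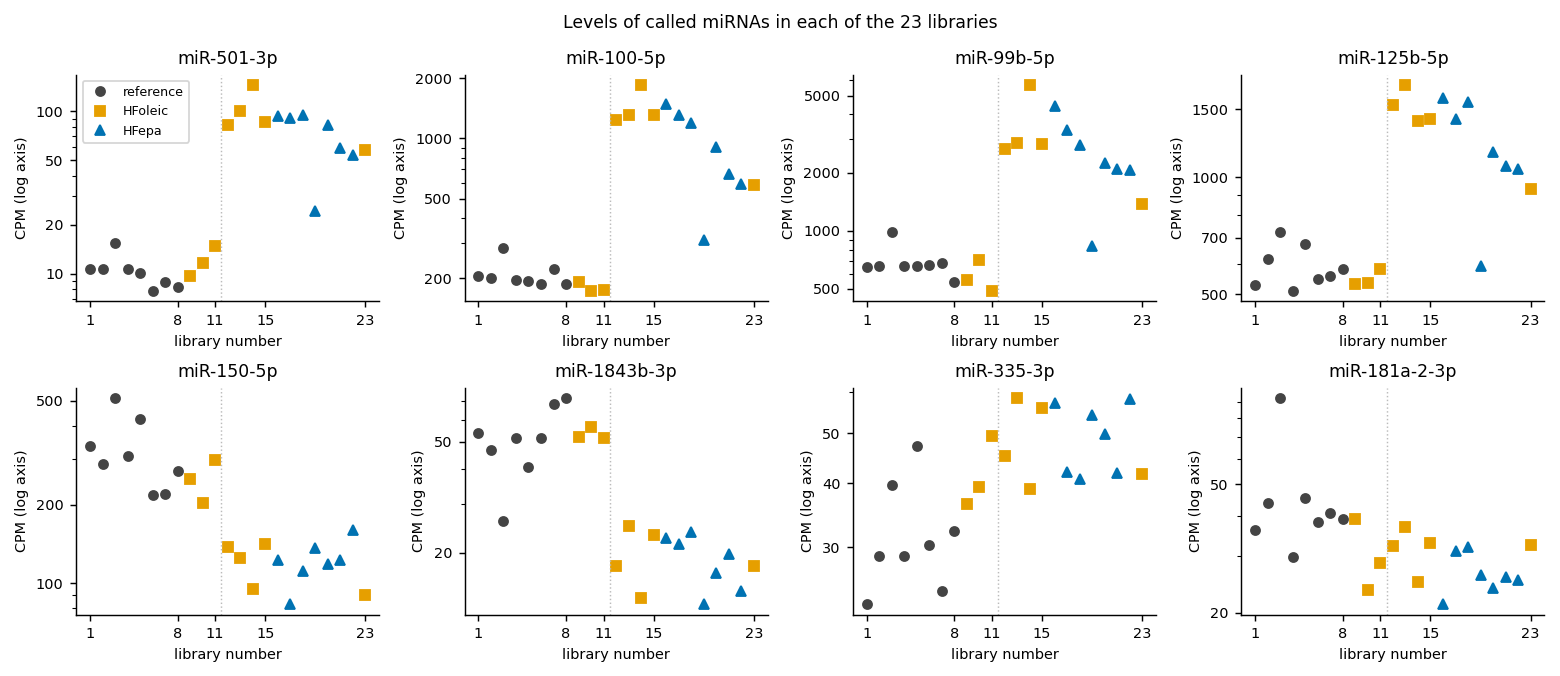
Levels of 8 called miRNAs in CPM on a log axis against the library number, with reference as circles, HFoleic as squares and HFepa as triangles; the dotted line separates libraries 11 and 12. In the upper row and for miR-150-5p and miR-1843b-3p, HFoleic libraries 9 to 11 lie with the reference group and HFoleic libraries 12 to 15 and 23 with HFepa.

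Among the miRNAs called lower, miR-150-5p, a miRNA abundant in mature lymphocytes, had one of the smallest p values. It ranged from 217 to 512 CPM in the reference group with a median of 297 and from 83.0 to 160 CPM in HFepa with a median of 122. The groups did not overlap, and the log2 fold change was -1.40 ± 0.25 (SE, adjusted p = 0.0012). The other 6 leukocyte miRNAs of the list, among them miR-142a-3p and miR-223-3p, were not called, and the median of all 7 was -0.18. Without reference libraries 3, 4 and 5 that median was 0.19, and miR-150-5p was still the 1 called, at -1.14. The level of the whole leukocyte list was 1819 to 3731 CPM in the reference group, highest in library 3, and 1622 to 2510 CPM in HFepa. In RNA of whole liver, fewer cells of a type and less of a miRNA per cell cannot be told apart.

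miR-1843b-3p (chr1:159340400-159340419, in an intron of Cop1, a ubiquitin ligase gene) fell from a range of 26.1 to 71.7 CPM (median 51.7) to one of 13.1 to 23.8 CPM (median 19.9). There was no overlap, although reference library 3 lay close to HFepa, and the log2 fold change was -1.44 ± 0.29 (SE, adjusted p = 0.0028). The 5p strand of this hairpin, at -0.06, was not called. miR-676-3p (chrX:100381151-100381171, in an intron of Eda) fell from 121 to 175 CPM (median 136) to 81.0 to 105 CPM (median 100.4), also without overlap. The log2 fold change was -0.59 ± 0.12 (SE, adjusted p = 0.0028). miR-181a-2-3p, the passenger strand of a hairpin of miR-181a, ranged from 29.7 to 92.4 CPM (median 39.9) in the reference group and from 21.2 to 31.9 CPM (median 25.8) in HFepa. Only the lowest reference mouse lay within the HFepa range. It changed by -0.79 ± 0.19 on the log2 scale (SE, adjusted p = 0.0082), and -0.61 without reference libraries 3, 4 and 5. Of the 4 guide strands of the miR-181 family, edgeR, DESeq2 and limma-voom called 0, 3 had an unadjusted p under 0.05 by edgeR, and the median was -0.40. Without reference libraries 3, 4 and 5, 0 had an unadjusted p under 0.05 and the median was -0.01.

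In the miR-25 family, 2 of 4 tested members were called lower, and 1 of 4 without reference libraries 3, 4 and 5. miR-25-3p (chr5:138165332-138165353, minus strand, within Mcm7, a gene of DNA replication) fell by 0.29 on the log2 scale (SE 0.07, adjusted p = 0.0065). Its range was 1004 to 1305 CPM in the reference group (median 1118) and 831 to 982 CPM in HFepa (median 953), without overlap. miR-92b-3p was called at -1.17 ± 0.37 (SE, adjusted p = 0.034), but reference library 3 alone reached 54.9 CPM against a group median of 9.93. Without that library its log2 fold change was -0.59, and it was not called, nor was it without reference library 5 or HFepa library 18, 19, 20, 21 or 22. miR-92a-3p, the most abundant member, had -0.27 ± 0.12 (SE, adjusted p = 0.12), and miR-32-5p had 0.34 ± 0.12 (SE, adjusted p = 0.056). In the cluster of miR-106b, miR-93 and miR-25, 1 of 6 tested strands was called and the median was -0.33, while in the cluster of miR-17 to miR-92a, 1 of 9 was called, miR-19a-3p, and the median was -0.06. miR-19a-3p lay at 36.6 to 59.1 CPM in the reference group and 19.99 to 42.6 CPM in HFepa. Its log2 fold change of -0.49 ± 0.14 (SE, adjusted p = 0.022) was not called without HFepa library 22, nor without reference libraries 3, 4 and 5 together.

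let-7f-5p was the called miRNA with the most counts, 3.07% of those in the 15 libraries. It ranged from 29824 to 36984 CPM in the reference group (median 33411) and from 21057 to 31044 CPM in HFepa (median 23974). Only HFepa library 17 lay within the reference range, and the log2 fold change was -0.44 ± 0.12 (SE, adjusted p = 0.020), a call that was lost without HFepa library 22. Of the 9 guide strands of let-7 and miR-98, it was the only one called, and their median was 0.08. let-7a-5p, whose sequence is nearly that of let-7f-5p, had a log2 fold change of 0.13 ± 0.11 (SE, adjusted p = 0.53), and reads with mismatches could have been divided between them. Among 11 tested passenger strands, let-7d-3p and miR-98-3p were called lower, and the median was -0.02. let-7d-3p fell from 326 to 439 CPM (median 416) to 288 to 350 CPM (median 316), where only reference library 3 lay within the HFepa range (log2 fold change -0.36 ± 0.09, SE, adjusted p = 0.013). miR-98-3p lay at 11.3 to 15.2 CPM in the reference group and 5.78 to 11.005 CPM in HFepa without overlap, with a log2 fold change of -0.60 ± 0.16 (SE, adjusted p = 0.016) that was not called without HFepa library 22.

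The miRNAs studied in liver lipid and glucose metabolism had a median log2 fold change of 0.00, with members from -0.63 to 0.85. Of 27 listed, 26 were tested, 1 was called higher (miR-335-3p) and 1 lower (miR-128-3p). Over all tested miRNAs, 61 of 386 were called (15.8%). miR-128-3p, from introns of R3hdm1 (chr1:128202404-128202424) and Arpp21 (chr9:112118644-112118664), lay at 40.9 to 52.3 CPM in the reference group (median 45.6). In HFepa it lay at 20.8 to 42.0 CPM (median 28.3), where a single mouse reached the reference range. The log2 fold change was -0.63 ± 0.15 (SE, adjusted p = 0.0087). miR-34a-5p had -0.01 ± 0.42 (SE, adjusted p = 0.997), miR-33-5p, from an intron of a sterol regulator gene, 0.45 ± 0.17 (SE, adjusted p = 0.076), and miR-107-3p 0.23 ± 0.12 (SE, adjusted p = 0.23). These values were not called. The value of miR-34a-5p moved to 0.68 without reference libraries 3, 4 and 5 (adjusted p = 0.18), and the level of the miR-34 family was 160 CPM in library 3.

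The most abundant miRNAs were not called either. miR-192-5p, a miRNA of hepatocytes and gut epithelium with 19.7% of the counts, lay at 98086 to 219059 CPM in the reference group (median 204640) and at 188193 to 227473 CPM in HFepa (median 204878). Its lowest value was that of reference library 3, and the log2 fold change was 0.12 ± 0.11 (SE, adjusted p = 0.54). miR-22-3p (17.8% of counts) had 0.17 ± 0.07 (SE, adjusted p = 0.092) and miR-148a-3p (8.13% of counts) had -0.26 ± 0.10 (SE, adjusted p = 0.068). miR-122-5p had a log2 fold change of -0.0003 ± 0.12 (SE, adjusted p = 0.999). Of the 6 hepatocyte strands, 0 were called by edgeR, DESeq2 or limma-voom, 0 had an unadjusted p under 0.05, and their median was 0.07, or -0.08 without reference libraries 3, 4 and 5. The summed level of that list was 212135 to 257937 CPM in HFepa. In the reference group it was 114464 CPM in library 3 and up to 251646 CPM, and 231115 to 251646 CPM without libraries 3, 4 and 5. Most of this sum was miR-192-5p, so it is not particular to hepatocytes, and reference library 3 held the least.

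In the other liver cell lists few strands were called, and the stellate and biliary medians changed sign without reference libraries 3, 4 and 5. The erythroid list had 0 of 4 called by edgeR and a median of -0.01, and the stellate cell and fibroblast list 0 of 7 and a median of -0.39. DESeq2 and limma-voom also called 0 in both lists, where 0 and 1 strands had an unadjusted p under 0.05 by edgeR. The biliary list had 1 of 5 called, miR-429-3p, and a median of -0.25. Reference library 3 was the highest of its group in the last 2 of these lists. It held 1738 CPM of miR-199a-3p against 392 to 575 CPM in the other 7, and 435 CPM of miR-200b-3p against 54.8 to 115 CPM. The summed biliary level was 1094 CPM in library 3, 151 to 237 CPM in reference libraries other than 3, 4 and 5, and 191 to 263 CPM in HFepa. miR-429-3p had a log2 fold change of -1.22 ± 0.38 (SE, adjusted p = 0.034), which was -0.48 and not called without library 3; the call was also lost without HFepa library 16, 17, 18, 20, 21 or 22. Without libraries 3, 4 and 5, the medians of the stellate and biliary lists were 0.10 and 0.27, with 0 called by edgeR in each and 1 and 3 strands at an unadjusted p under 0.05.

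The endothelial list had 1 of 2 strands called, with a median of 0.19. miR-126a-5p, from the locus of the endothelial gene Egfl7, lay at 11742 to 17674 CPM in the reference group (median 16379) and 17384 to 20759 CPM in HFepa (median 18289). The log2 fold change was 0.25 ± 0.08 (SE, adjusted p = 0.042), just past the fold threshold. The call was lost in 7 of 15 leave-one-out fits, without reference library 3 or 5 and without HFepa library 16, 18, 20, 21 or 22. It was also lost without reference libraries 3, 4 and 5 together, at 0.16. miR-126b-3p was called with the same values. It lies on the opposite strand of the same locus, its counts differed from those of miR-126a-5p by at most 1 in any library, and the 2 entries are 1 signal here.

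**Figure D3:**
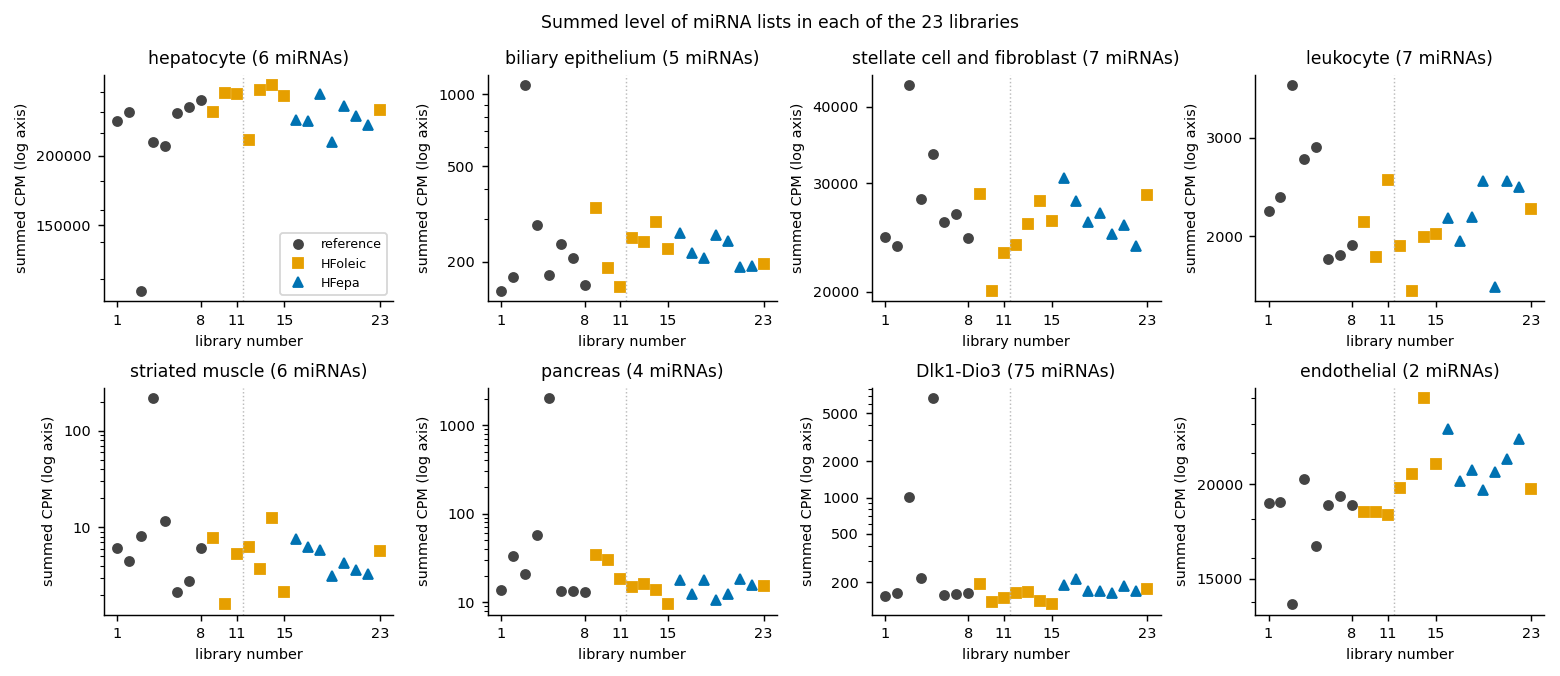
Summed level of 8 miRNA lists in CPM on a log axis against the library number, with reference as circles, HFoleic as squares and HFepa as triangles. Reference library 3 is the lowest in the hepatocyte list (114464 CPM) and the highest in the biliary list (1094 CPM), library 4 the highest in the muscle list (219 CPM) and library 5 the highest in the pancreas (2021 CPM) and Dlk1-Dio3 (6675 CPM) lists.

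The largest falls rested on single reference mice. In 15 of the 41 miRNAs called lower, 1 reference library held more than the other 7 together, library 5 in 13 and library 4 in 2. miR-375-3p, a miRNA of pancreatic islets and other endocrine or epithelial cells, reached 2020 CPM in library 5 against a reference median of 16.8 CPM, while HFepa lay at 10.5 to 18.4 CPM (median 15.6). Its log2 fold change was -4.19 ± 1.08 (SE, adjusted p = 0.014) with library 5 and -0.62 without it, where it was not called. The other pancreas markers, miR-216a-5p, miR-216b-5p and miR-217-5p, were at 0 in 8 to 11 of the 15 libraries and were not tested.

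All 10 called strands in the list of the Dlk1-Dio3 cluster on chromosome 12 were lower in HFepa. This imprinted locus holds many miRNA hairpins expressed mainly before birth and in brain, placenta and endocrine tissue. The table lists 75 of its strands, of which 11 were tested, and their median log2 fold change was -2.25. miR-127-3p (chr12:109592888-109592909, plus strand) lay at 67.0 to 3939 CPM in the reference group with a median of 72.4 and at 74.1 to 105 CPM in HFepa with a median of 78.7. Its median was thus higher in HFepa, whereas the log2 fold change was -2.84 ± 0.81 (SE, adjusted p = 0.024). The fall was -0.48 without library 5, and the call was lost without that library and without HFepa library 22. miR-410-3p (chr12:109743764-109743784, plus strand) reached 169 CPM in library 5 against a reference median of 2.13 CPM, and HFepa lay at 0.79 to 3.17 CPM (log2 fold change -3.80 ± 1.003, SE, adjusted p = 0.015). Without library 5 its log2 fold change was -1.31, not called. For the 10 called strands, library 5 was needed for every call. With no library left out, DESeq2, limma-voom and limma after quantile normalization each called 0 of the 11. Here limma-voom was run with library quality weights, and DESeq2 with its default handling of outlying counts. Those 2 tests need not give library 5 its full weight. Without reference libraries 3, 4 and 5, edgeR called 0 of 11, 0 had an unadjusted p under 0.05, and the median was 0.21. miR-3071-5p, on the opposite strand of this locus, was also called lower, at -2.23, but is not in the list. It overlaps miR-136-3p, and their counts over the 23 libraries were close, at 1880 and 1974. The 2 calls are therefore not separate evidence. How reads were assigned to the strands was not tested.

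miR-215-5p, of the seed family of miR-192-5p, and miR-133a-3p, a miRNA of striated muscle, were highest in reference library 4. miR-215-5p had 1885 CPM there, against a group median of 29.3 CPM and 24.97 to 39.4 CPM in HFepa. Its log2 fold change of -3.15 ± 0.91 (SE, adjusted p = 0.025) became -0.01 without library 4, and the call was also lost without HFepa library 22. miR-133a-3p had 205 CPM in library 4 against a group median of 5.62 CPM and 2.36 to 6.49 CPM in HFepa, with a log2 fold change of -2.85 ± 0.89 (SE, adjusted p = 0.034) that was -0.36 without library 4. That call was also lost without any 1 HFepa library. The summed muscle list was 219 CPM in library 4, 2.13 to 6.15 CPM in reference libraries other than 3, 4 and 5, and 3.09 to 7.60 CPM in HFepa. miR-10b-5p, from the Hoxd cluster, reached 20240 CPM in library 5 against a median of 713 CPM and 354 to 1291 CPM in HFepa. Its log2 fold change of -2.36 ± 0.83 (SE, adjusted p = 0.04998) was called in only 6 of 15 leave-one-out fits, not without reference library 3 or 5 or any 1 HFepa library, and was -0.36 without library 5. Neuron markers were not tested, and miR-124-3p was at 0 in 13 of 15 libraries.

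Groups by seed and by position could be formed only for the 333 tested miRNAs with a sequence. Called miRNAs without one, such as miR-30b-5p and miR-145a-3p, could not enter. By seed, 37 families had 2 or more such members, and only the miR-99 and miR-25 families had more than 1 called. By position, 35 groups of hairpins within 10 kb of each other had at least 2 hairpins tested, and 7 of them had more than 1 called strand. These include parts of the Dlk1-Dio3 cluster, whose calls needed reference library 5. They also include let-7 groups on chromosomes 13 and X, and let-7f-5p, with 2 loci, was counted in both. No such count was made without reference libraries 3, 4 and 5. In the cluster of miR-322, miR-450 and miR-503 on the X chromosome, 2 of 7 tested strands were called higher, with a median of 0.18. miR-450a-5p rose from 8.91 to 14.9 CPM to 14.2 to 25.7 CPM, with 1 mouse of overlap (log2 fold change 0.68 ± 0.19, SE, adjusted p = 0.024), but not without HFepa library 22. miR-322-3p lay at 47.8 to 65.9 CPM against 64.8 to 89.8 CPM (log2 fold change 0.36 ± 0.12, SE, adjusted p = 0.034), a call lost without reference library 4 or 5, without HFepa library 16, 17, 18 or 20, and without reference libraries 3, 4 and 5 together.

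In the cluster of miR-221 and miR-222, known from dividing cells and fibrosis, strands moved in opposite directions. miR-222-3p (chrX:19146901-19146923, minus strand) fell from 119 to 155 CPM (median 130) to 75.7 to 97.5 CPM (median 91.8), without overlap, by -0.60 ± 0.16 (SE, adjusted p = 0.014). miR-221-5p (chrX:19146344-19146369, minus strand) rose from 12.2 to 19.8 CPM (median 15.5) to 20.7 to 35.9 CPM (median 33.5), also without overlap, by 0.88 ± 0.22 (SE, adjusted p = 0.010). miR-221-3p, the abundant strand of that hairpin, had a log2 fold change of -0.03. Likewise miR-425-3p, the rare strand of its hairpin, fell from 8.66 to 13.4 CPM to 4.47 to 7.85 CPM without overlap (log2 fold change -0.997 ± 0.18, SE, adjusted p = 0.0012), while miR-425-5p had 0.11. miR-145a-3p rose from 69.1 to 110 CPM to 89.7 to 157 CPM (log2 fold change 0.61 ± 0.20, SE, adjusted p = 0.040), while miR-145a-5p had -0.33. That call was lost in 7 leave-one-out fits, without reference library 4, 5 or 8 and without HFepa library 16, 17, 18 or 20. Over 100 hairpins with both arms tested under the same name, 27 had a called arm, and only that of miR-434 had both. Strands named by the copy of their hairpin, such as miR-125b-1-3p, were not paired here. Hairpins on opposite strands of 1 locus, such as miR-126a and miR-126b, were counted separately. The 2 arms had opposite signs in 9 of the 27, and in 43 of all 100. The calls of miR-222-3p, miR-221-5p and miR-145a-3p were lost without reference libraries 3, 4 and 5, at -0.57, 0.74 and 0.67.

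**Figure D4:**
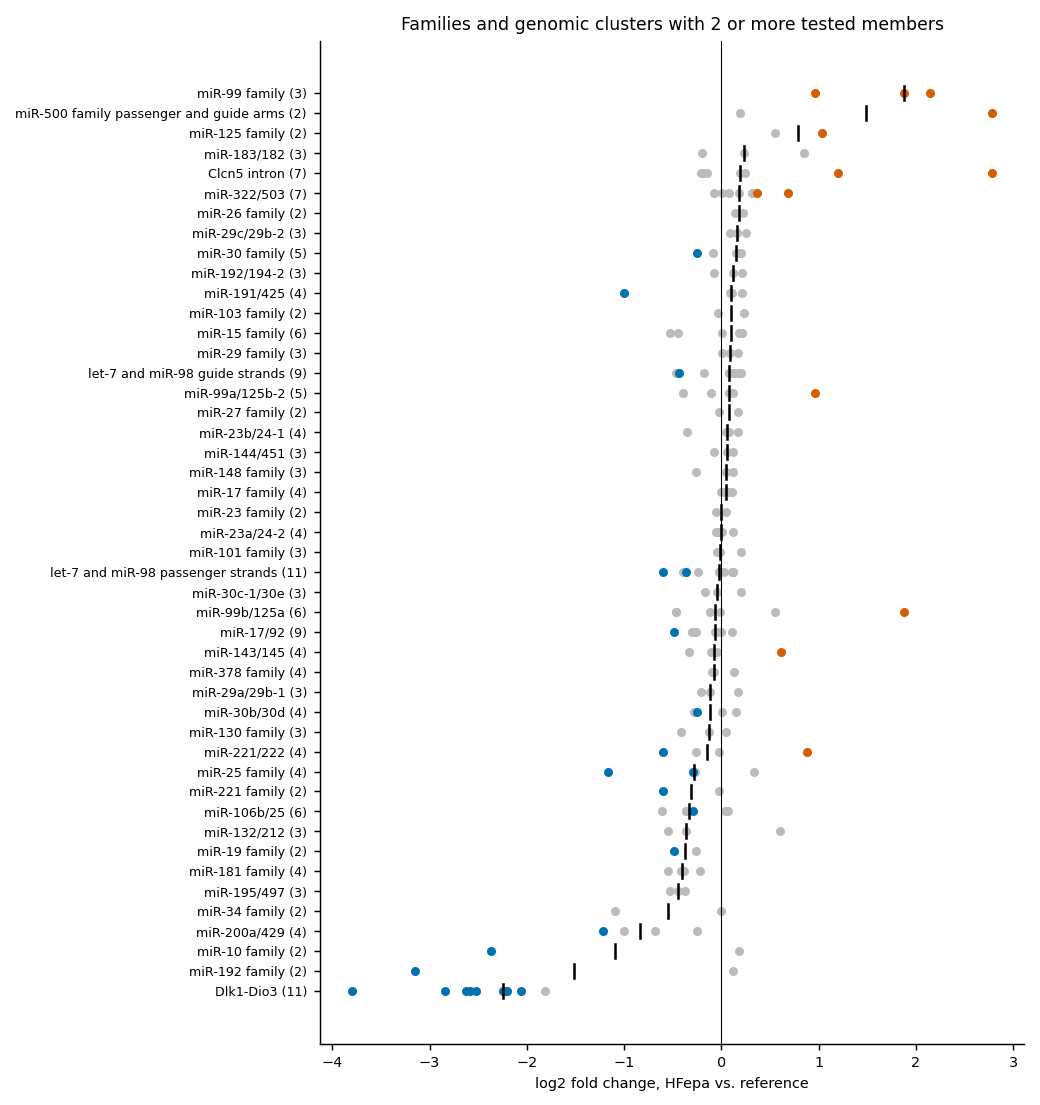
Log2 fold change of HFepa vs. reference for each tested member of the families and genomic clusters with 2 or more tested members (number in brackets), ordered by their median, which is the black bar; orange is called higher, blue called lower and grey not called. The miR-99 family lies at the top with a median of 1.88 and Dlk1-Dio3 at the bottom with -2.25, while most other medians lie near 0.

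The HFoleic libraries, which shared the high-fat diet but not the lineage, did not form 1 level. miR-501-3p was at 9.62 to 14.8 CPM in HFoleic libraries 9 to 11 and at 57.4 to 146 CPM in libraries 12 to 15 and 23. miR-100-5p was at 172 to 191 CPM and 587 to 1856 CPM, and miR-99b-5p at 489 to 708 CPM and 1368 to 5687 CPM, in the same order. In these miRNAs the first 3 HFoleic mice lay with the reference group and the other 5 with HFepa. The same held for falls, with miR-1843b-3p at 51.7 to 56.7 CPM and 13.8 to 25.02 CPM, and miR-150-5p at 203 to 297 CPM and 90.2 to 141 CPM. Of the 61 called miRNAs, the mean of HFoleic libraries 9 to 11 was nearer to the reference group in 38 and that of the others nearer to HFepa in 60. Both were true of 37, 16 of the 20 higher and 21 of the 41 lower. miR-335-3p did not show such a step, at 36.4 to 49.3 CPM and 38.9 to 58.4 CPM. The counts of 38, 60 and 37 were made over the called miRNAs only, with no share over all tested miRNAs beside them. Those miRNAs were chosen for a difference between reference and HFepa, in a fit that held HFoleic. The counts therefore cannot be read as a trait particular to them.

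When the fit held a term that separates library numbers up to 11 from the higher ones, 0 miRNAs were called in HFepa vs. reference by edgeR (0.0%), 16 had an unadjusted p under 0.05, and the lowest adjusted p was 0.54. The sign turned for 19 of the 61, 12 higher and 7 lower, and the log2 fold changes became -0.19 for miR-501-3p, -0.67 for miR-100-5p, -0.51 for miR-99b-5p and 0.013 for miR-1843b-3p. That fit has no reference library among the higher numbers and no HFepa library among the lower ones, so its HFepa value rests on HFoleic. HFoleic vs. reference, which shares the reference mice, called 48 of 386 (12.4%), with log2 fold changes of 2.62 for miR-501-3p and 2.03 for miR-100-5p. In HFepa vs. HFoleic, 0 miRNAs were called by edgeR, 22 of 386 had an unadjusted p under 0.05, and the lowest adjusted p was 0.33. The 61 included 8 of these 22, among them miR-676-3p at -0.33 (adjusted p = 0.53) and miR-1843b-3p at -0.77 (adjusted p = 0.57). Both comparisons use the same HFepa mice in 1 fit, so shared members can arise from that alone and are no separate evidence.

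**Figure D5:**
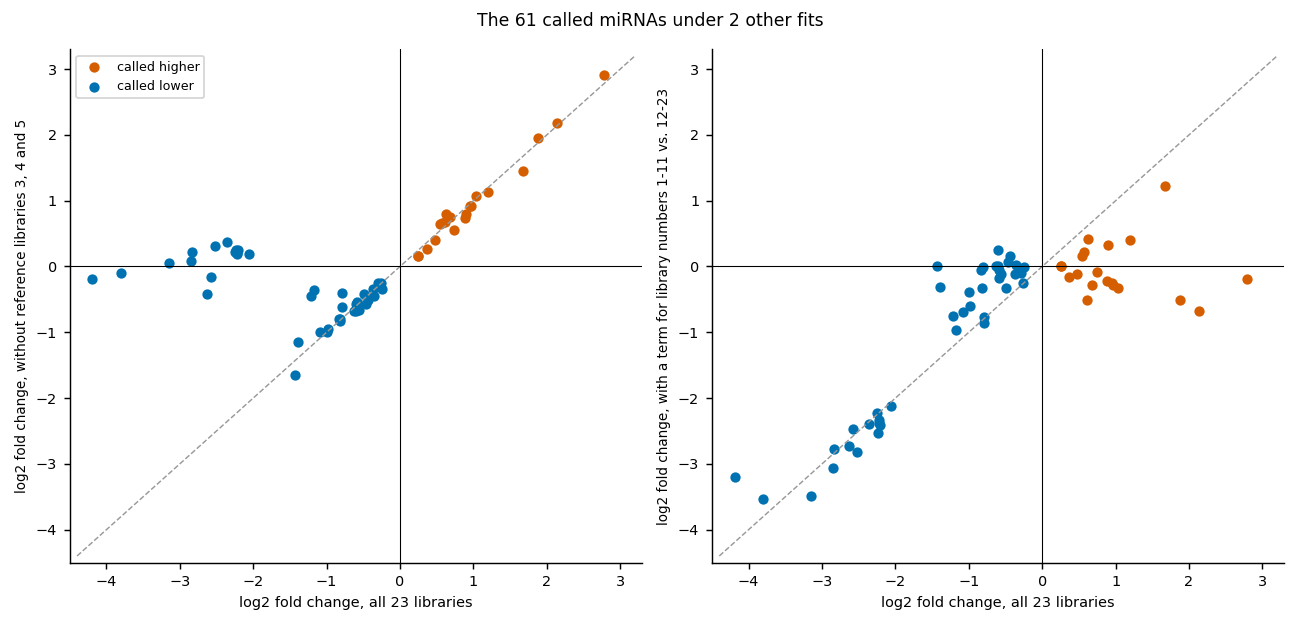
Log2 fold change of the 61 called miRNAs with all 23 libraries (x axes) against that without reference libraries 3, 4 and 5 (left) and that with a term for library numbers 1 to 11 vs. 12 to 23 (right); orange is called higher, blue called lower and the dashed line marks equal values. On the left the miRNAs below -2 move to near 0 while most others stay near the line, and on the right miR-501-3p, at 2.79 on the x axis, lies at -0.19.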

How the data were processed

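Small RNA of mouse liver was sequenced by the authors in 23 libraries, which were assigned to reference (8), HFoleic (8) and HFepa (7) by the lineage and diet of their labels. Adapters were removed with the FASTX-Toolkit and reads were aligned with Bowtie in ncPRO-seq and assigned to mature miRNAs of miRBase; per the submitters' processing notes, bcl2fastq 2.17.1.14 was used. The genome is named both GRCm38.p6 and mm9 in the methods and mm10 in those notes. The authors deposited raw read counts per mature miRNA, which were the values used. They also deposited a signal (counts over a library's size factor) and log2 fold changes, p-values and adjusted p-values of their own comparisons; none of these was used. The methods name DEGseq and quantile normalization, whereas the comparison columns have the form of DESeq2.

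The members and lists were chosen with earlier results of these data known, as was the split of the library numbers. miRNAs passing filterByExpr were scaled by TMM, the 3 groups entered 1 fit, and HFepa vs. reference was tested in edgeR (quasi-likelihood F test, p adjusted by Benjamini and Hochberg); HFoleic enters the estimate of the spread. The tested miRNAs hold 99.98% of counts. The SE is the log2 fold change divided by the square root of F. Totals of 3725432 to 8139344 counts per library leave the spread between mice, not counting error, as the main limit for abundant miRNAs. miRNAs were named by rule: the 5 called in each direction with the largest fold change at a mean of at least 10 CPM, the 8 in each direction with the smallest p among those called in all 15 leave-one-out fits, the 3 called and the 3 tested miRNAs with the most counts, and called or most abundant members of a list; others were named as members of the families described. Host genes are those of GENCODE on GRCm38.p6, on the same strand. As alternatives, upper-quartile factors, library size, DESeq2, limma after quantile normalization, 2 filters, only the 2 groups, an unadjusted p under 0.01, no fold threshold, limma-voom, thinning to 3725432 counts, the library number term and each library left out were tried; leaving out reference libraries 3, 4 and 5 was added after the data were seen. Throughout, limma-voom was run with library quality weights, and DESeq2 with its default handling of outlying counts. Fits were tested on simulated data. R 4.3.3, edgeR 4.0.16, limma 3.58.1, DESeq2 1.42.0, Python 3.11.15, pandas 2.3.3 and matplotlib 3.10.9 were used, with seed 20200412.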

Additional observations from a re-analysis of the deposited data

Results flagged for a closer look

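Dixon's criterion was applied to 96 groups of libraries for the named miRNAs. In 26 cases the highest or lowest library was far from the others of its group. For independent, normally distributed values, chance gives about 1 in 20 groups. Most of these miRNAs were named because they were called, and some calls rested on such a library. That rate is therefore no yardstick for the 26 cases. Reference library 5 was far above the other reference mice in 12 miRNAs, with 2020 CPM of miR-375-3p, 20240 of miR-10b-5p and, in the Dlk1-Dio3 cluster, 3939 CPM of miR-127-3p, 168.7 of miR-410-3p, 189.5 of miR-136-3p, 69.84 of miR-300-3p, 107.6 of miR-381-3p, 48.01 of miR-409-3p, 696.3 of miR-411-5p, 75.71 of miR-434-5p, 580.7 of miR-434-3p and 420.0 of miR-541-5p. Reference library 4 was far above in 2, with 1885 CPM of miR-215-5p and 205.2 of miR-133a-3p.

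Reference library 3 was the highest by such a gap in 7 miRNAs, with 15.36 CPM of miR-501-3p, 281.6 of miR-100-5p, 987.2 of miR-99b-5p, 92.43 of miR-181a-2-3p, 276.9 of miR-429-3p, 54.91 of miR-92b-3p and 109.7 of miR-145a-3p. It was the lowest in 2, with 326.0 CPM of let-7d-3p and 98090 of miR-192-5p. Within HFepa, library 17 was high for miR-127-3p at 105.1 CPM, library 19 was high for miR-429-3p at 42.83 CPM, and library 22 was low for miR-300-3p at 1.417 CPM.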

How the results depend on the processing

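Of the 61 calls in HFepa vs. reference, 20 higher and 41 lower, the totals without 1 library ranged from 32 to 66, those higher from 14 to 25 and those lower from 15 to 41; the total was 36 without reference library 5, 38 without HFepa library 16 or 18 and 32 without HFepa library 22. It was 24 after quantile normalization with limma, 40 with only the 2 groups, 32 without reference libraries 3, 4 and 5, an alternative added after the data were seen, and 0 with the library number term. Calls higher were 12 with no filter and 0 with that term. Calls lower were 23 by DESeq2, 6 after quantile normalization, 18 with only the 2 groups, 25 by limma-voom, 17 without reference libraries 3, 4 and 5, and 0 with the term. The other alternatives kept each of these 3 counts within 1.5 times. The median log2 fold change of all tested miRNAs was -0.12 with library size in place of TMM, -0.17 with no filter and 0.02 after quantile normalization.

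Among 1239 values of single miRNAs, 32 turned in sign where the miRNA was called in the main fit or in the alternative. Turns of miRNAs called in neither were not counted or listed. Examples are miR-192-5p, at -0.057 without reference libraries 3, 4 and 5, and miR-148a-3p, at 0.12 with the library number term. Without reference libraries 3, 4 and 5 the log2 fold change was 0.056 for miR-215-5p, 0.085 for miR-133a-3p, 0.22 for miR-127-3p, 0.37 for miR-10b-5p, 0.21 for miR-136-3p, 0.25 for miR-300-3p, 0.31 for miR-381-3p, 0.19 for miR-411-5p, 0.26 for miR-434-5p and 0.22 for miR-541-5p. By DESeq2 it was 0.0032 for miR-215-5p, and by limma-voom 0.041 for miR-300-3p, 0.12 for miR-381-3p, 0.14 for miR-434-5p and 0.044 for miR-541-5p. With the library number term it was -0.19 for miR-501-3p, -0.67 for miR-100-5p, -0.51 for miR-99b-5p, -0.32 for miR-125b-5p, -0.25 for miR-5099, -0.11 for miR-151-5p, -0.29 for miR-99a-5p, 0.013 for miR-1843b-3p, 0.0081 for miR-128-3p, 0.021 for let-7d-3p, 0.25 for miR-222-3p, 0.16 for let-7f-5p, 0.013 for miR-98-3p, -0.22 for miR-221-5p, -0.51 for miR-145a-3p, -0.15 for miR-322-3p and -0.28 for miR-450a-5p. The causes were not tested. No paired analysis was possible because the groups share no replicate numbers.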
